A study of Mus musculus with 16 samples.

Results

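The 10 genes described here are Rgs7bp, Hnf4a, Mmp2, Il12rb2, Shisa8, Kcnk12, Rps4l, Synpo2, Myh10 and Sec16b, taken by gene symbol from the 14829 genes of the count table. They were selected on measured values, namely the largest falls from young to old libraries in these data, so their values of old against young mice below describe that choice and carry no test. Other genes, named as relatives, are given with a test of old against young mice. Bulk RNA sequencing was done on hematopoietic stem cells (HSCs), the bone marrow cells that renew themselves and give rise to all blood lineages, from 4 old and 4 young mice. Marrow of each mouse was split and kept for 1 h at 37 °C with dmPGE2 or with vehicle before the stem cells were sorted, which gave 4 groups of 4 libraries: old dmPGE2, old vehicle, young dmPGE2 and young vehicle. The compound dmPGE2 is a long-acting analog of prostaglandin E2, a lipid mediator that acts through G protein-coupled receptors. The old mice were numbers 485 and 486 on date 2 and 479 and 480 on date 1, and the young mice were 483 and 484 on date 2 and 477 and 478 on date 1. The labels give no age in months, strain or sorting markers, nor what was done on each date.

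HSCs gain in number but lose in function as mice age, and their RNA shifts with them. The 10 genes do not form a pathway. Rgs7bp, Il12rb2, Kcnk12 and Shisa8 encode proteins that act at the cell surface or on signals arriving there. Hnf4a encodes a transcription factor, Rps4l belongs to a ribosomal protein family, Mmp2 encodes a secreted protease, Synpo2 and Myh10 act on actin, and Sec16b acts in protein export from the endoplasmic reticulum.

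Libraries held 12960704 to 19226963 counts, and those of date 2 were the smaller ones. Levels are given in CPM, counts scaled to library size, and a count of 0 allows up to 3 counts, or 0.156 to 0.231 CPM, for counting error only. All 14 stem cell markers looked at, among them Procr, Slamf1, Mecom and Hlf, were measured. After dmPGE2 they summed to 5215 to 6484 CPM in old and 3929 to 5745 CPM in young libraries. After vehicle they summed to 5249 to 6910 CPM in old and 3782 to 5830 CPM in young libraries. Within each date, old sums lay above young sums in both arms. In vehicle libraries of date 2 they were 5249 to 5411 CPM in old and 3782 to 4025 CPM in young mice. On date 1 they were 6130 to 6910 CPM in old and 5484 to 5830 CPM in young mice. The 8 measured myeloid progenitor markers summed to 2432 to 2457 CPM in old and 3306 to 4399 CPM in young vehicle libraries on date 2. On date 1 they summed to 1213 to 1289 CPM in old and 988 to 1134 CPM in young ones. The 11 neutrophil markers summed to 990 to 998 CPM in old and 1457 to 1596 CPM in young vehicle libraries on date 2, against 254 to 274 CPM in old and 197 to 199 CPM in young vehicle libraries on date 1. In bulk samples such as these, fewer cells of a type and less RNA per cell cannot be told apart, for the 10 genes as for the markers.

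The exact cut that chose the 10 genes is not stated. Each of them stands near the top of at least 1 of 2 rankings made here. Among genes with an average level of at least 2 on the log2 CPM scale, an adjusted p under 0.05 and every old library below every young one, 565 were lower in old mice after dmPGE2 and 760 after vehicle. Places 1 to 5 and 7 after dmPGE2 were held by Rgs7bp, Mmp2, Hnf4a, Synpo2, Myh10 and Sec16b. Places 1 to 4 and 6 to 8 after vehicle were held by Rgs7bp, Hnf4a, Mmp2, Il12rb2, Shisa8, Kcnk12 and Rps4l. The genes between them that are not in the set were Cd86 at place 6 after dmPGE2 and Socs2 at place 5 after vehicle. Last in these runs of places stood Sec16b after dmPGE2, with a log2 fold change of -2.05, and Rps4l after vehicle, with -1.86. Next came Socs2 after dmPGE2, with -2.03, and Plxna2 after vehicle, with -1.83.

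As a set, the 10 genes had a median log2 fold change, old over young, of -2.08 after dmPGE2 and -2.06 after vehicle, where the medians of all genes tested were -0.01 and -0.00. Every old library lay below every young library for 10 of 10 genes after dmPGE2 and for 8 of 10 after vehicle. Over all genes tested this held for 8.0% after dmPGE2 and 8.53% after vehicle, and since the genes were picked for this contrast nothing is read from the gap. Within date 2, old and young libraries did not overlap for 10 genes after dmPGE2 and 8 after vehicle, and within date 1 they did not overlap for 10 genes in either arm. Each of these counts sets 2 old against 2 young libraries, and the share over all genes within a date was not computed. The genes were picked for this contrast, so nothing is read from the counts by date either. Rgs7bp was the gene closest to absent in old mice, and the other 9 had counts in all 8 old libraries.

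**Figure D1:**
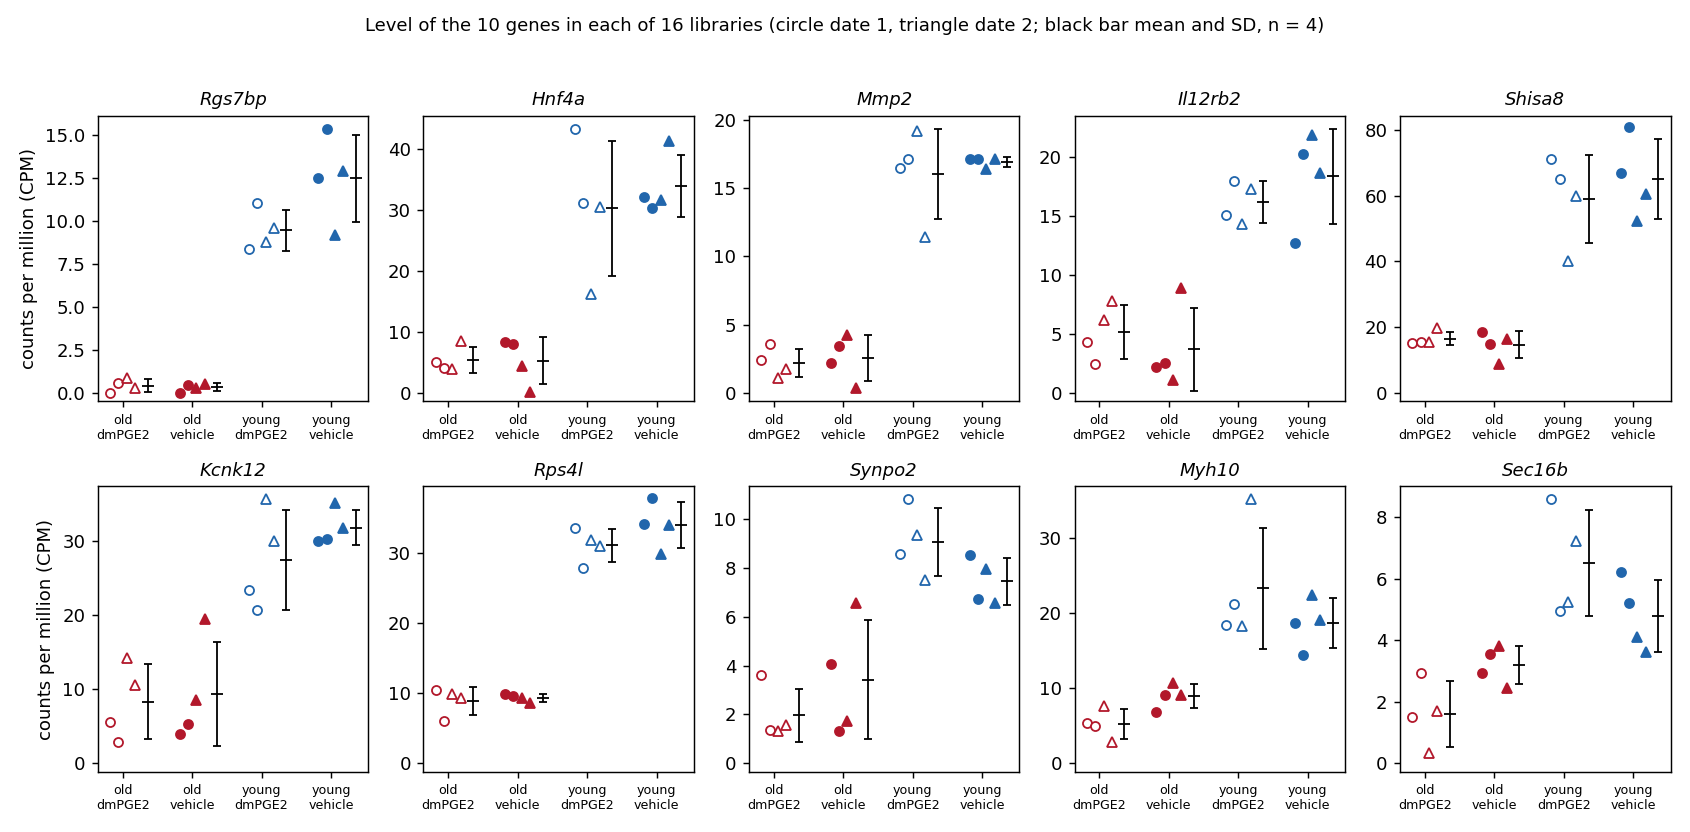
Level of each gene in CPM (vertical axes start just under 0) in 4 groups of 4 libraries, old in red, young in blue, dmPGE2 open and vehicle filled, with circles for date 1, triangles for date 2 and black bars for mean and SD. Old libraries sit below young ones in every panel except for Synpo2 and Sec16b after vehicle, where single old libraries reach 6.56 and 3.82 CPM.

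Rgs7bp had the widest gap between old and young mice. Its protein anchors complexes of R7 family regulators of G protein signalling with Gnb5 at the plasma membrane, as known from neurons. Throughout, the values of 4 libraries are given in the order of mice 479, 480, 485 and 486 for old and 477, 478, 483 and 484 for young. After dmPGE2, Rgs7bp had 0, 0.540, 0.850 and 0.263 CPM in old mice, against 8.37, 11.1, 8.79 and 9.59 CPM in young mice. After vehicle, Rgs7bp had 0, 0.446, 0.255 and 0.520 CPM in old mice, against 12.5, 15.4, 9.19 and 12.9 CPM in young mice. Old mouse 479 had 0 counts in both libraries, and no old library came near the lowest young one. The 4 old libraries together held 26 counts after dmPGE2 and 20 after vehicle. For Rgs7bp, the log2 fold change, old over young, was -4.51 ± 0.64 in dmPGE2 libraries and -5.32 ± 0.57 in vehicle libraries (± approximate SE). Rgs7bp averaged, on date 2, 6.06% of its young level in old mice after dmPGE2 and 3.51% after vehicle, and on date 1 2.78% after dmPGE2 and 1.60% after vehicle. Rgs7bp lies at chr13:104947153-105054930, minus strand (mm10). Its RefSeq promoter (GRCm38.p6), here the 250 bases before the gene's start, lies at chr13:105054931-105055180, minus strand, and is shown because no other gene of the set came as close to 0:
Rgs7bp promoter: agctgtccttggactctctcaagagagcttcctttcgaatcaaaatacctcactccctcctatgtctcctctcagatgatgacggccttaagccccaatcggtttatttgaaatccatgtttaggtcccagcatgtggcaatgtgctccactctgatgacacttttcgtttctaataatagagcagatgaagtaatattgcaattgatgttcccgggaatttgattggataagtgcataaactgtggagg
None of 9 short motifs searched on both strands was found in these letters, so the run has no capitals. The motifs were the GATA factor site AGATAA, the RUNX factor site TGTGGT, the ETS factor site CCGGAAG, the common E-box with letters CACGTG, a further E-box with letters CAGCTG, the promoter box near the start with letters TATAAA, a part of the cyclic AMP response element with letters TGACGT, the Sp1 box with letters GGGCGG and the nuclear receptor half-site with letters AGGTCA. Its GC content was 43.2%, where the median of 32851 mouse promoters was 52.4%.

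Il12rb2 encodes the signalling chain of the interleukin 12 receptor, which pairs with Il12rb1. After dmPGE2, Il12rb2 had 4.26, 2.46, 6.21 and 7.75 CPM in old mice, against 15.1, 18.0, 14.3 and 17.3 CPM in young mice. After vehicle, Il12rb2 had 2.19, 2.51, 1.08 and 8.90 CPM in old mice, against 12.7, 20.3, 21.9 and 18.7 CPM in young mice. Old mouse 486 was high for its group in both arms, and in vehicle it lay closer to the lowest young library than to the old mice of date 1. For Il12rb2, the log2 fold change was -1.69 ± 0.28 in dmPGE2 libraries and -2.41 ± 0.48 in vehicle libraries. Without old mouse 486 the vehicle value was -3.27. Il12rb2 averaged, on date 2, 44.1% of its young level in old mice after dmPGE2 and 24.6% after vehicle, and on date 1 20.3% after dmPGE2 and 14.2% after vehicle. Il12rb2 lies at chr6:67292018-67376137, minus strand. In GENCODE vM21, 819 bases (27.8% of its counted exon length) overlap exons of Serbp1 on the opposite strand, and between the exons the count table lists for these 2 genes there is no overlap. Of the 50-base words of Il12rb2 transcripts in GENCODE vM21, 38.0% also occur in Serbp1, on either strand. Serbp1, named after its values were seen, had 400 ± 22.2 CPM in old and 463 ± 33.3 CPM in young vehicle libraries (SD, n = 4 each). Whether Serbp1 reads enter the Il12rb2 counts was not tested, since the strand used for counting is not stated.

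Interleukin 12 receptor signalling runs from its receptor chains to Jak2, Tyk2 and Stat4, and related receptors share these parts. Of 14 measured relatives on this list, 6 were higher and 0 lower in old mice after dmPGE2, and 5 were higher and 0 lower after vehicle. Over all genes, 7.85% were called higher and 6.41% lower after dmPGE2, and 8.47% higher and 8.86% lower after vehicle. Of the interleukin 12 route itself, Il12rb1, Jak2, Tyk2 and Stat4 were not called after vehicle, with log2 fold changes of 0.32, 0.25, -0.19 and 0.24. Il12rb1 was not called after dmPGE2 either, at 0.19, and Jak2, Tyk2 and Stat4 are not given here for that arm. Stat3, a transcription factor of cytokine signalling, rose 1.51-fold in each arm (adjusted p = 0.00021 after dmPGE2 and 0.000202 after vehicle). Il27ra, a chain of the interleukin 27 receptor, averaged 152 ± 7.56 CPM in old and 95.3 ± 11.5 CPM in young dmPGE2 libraries, and 148 ± 15.8 CPM in old and 93.1 ± 15.6 CPM in young vehicle libraries (means ± SD, n = 4 each, here and below). It rose 1.64-fold after dmPGE2 and 1.60-fold after vehicle (adjusted p = 0.000532 and 0.00137). Il6st, the shared signalling chain of the interleukin 6 family of receptors, rose 1.48-fold after dmPGE2 and 1.62-fold after vehicle (adjusted p = 0.00124 and 0.00595).

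Kcnk12 encodes a two-pore domain potassium channel subunit, THIK-2. After dmPGE2, Kcnk12 had 5.59, 2.94, 14.2 and 10.6 CPM in old mice, against 23.4, 20.7, 35.6 and 29.9 CPM in young mice. After vehicle, Kcnk12 had 3.96, 5.35, 8.54 and 19.5 CPM in old mice, against 29.9, 30.2, 35.1 and 31.7 CPM in young mice. In old mice both libraries of date 2 lay above both of date 1 in each arm, and all old libraries lay below all young ones. For Kcnk12, the log2 fold change, old over young, was -1.83 ± 0.26 in dmPGE2 libraries and -1.95 ± 0.32 in vehicle libraries. Kcnk12 averaged, on date 2, 37.8% of its young level in old mice after dmPGE2 and 41.9% after vehicle, and on date 1 19.4% after dmPGE2 and 15.5% after vehicle. Kcnk12 lies at chr17:87745821-87797994, minus strand. Of its measured relatives, 1 of 4 was called after dmPGE2 and 1 of 3 after vehicle, in each case Kcnk6, a channel subunit of the same family. Kcnk6 averaged 25.4 ± 10.5 CPM in old and 9.77 ± 1.75 CPM in young dmPGE2 libraries, and 17.2 ± 3.42 CPM in old and 7.28 ± 2.98 CPM in young vehicle libraries. Kcnk6 rose 2.54-fold after dmPGE2 and 2.42-fold after vehicle (adjusted p = 0.000979 and 0.00757).

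Shisa8 encodes a small transmembrane protein known from mouse brain as an auxiliary subunit of AMPA-type glutamate receptors. After dmPGE2, Shisa8 had 15.2, 15.6, 15.6 and 19.6 CPM in old mice, against 71.2, 65.1, 40.3 and 59.8 CPM in young mice. After vehicle, Shisa8 had 18.4, 14.7, 8.79 and 16.4 CPM in old mice, against 66.9, 80.8, 52.2 and 60.6 CPM in young mice. It had the highest CPM of the 10 genes, and the groups lay far apart. For Shisa8, the log2 fold change was -1.79 ± 0.17 in dmPGE2 libraries and -2.16 ± 0.18 in vehicle libraries. Shisa8 averaged, on date 2, 35.2% of its young level in old mice after dmPGE2 and 22.3% after vehicle, and on date 1 22.6% after dmPGE2 and 22.4% after vehicle. Shisa8 lies at chr15:82206952-82212815, minus strand. Its RefSeq promoter (GRCm38.p6), at chr15:82212816-82213065, minus strand, is shown because it was the richest in GC and in motif matches among the 10 promoters of 8 genes that could be matched:
Shisa8 promoter: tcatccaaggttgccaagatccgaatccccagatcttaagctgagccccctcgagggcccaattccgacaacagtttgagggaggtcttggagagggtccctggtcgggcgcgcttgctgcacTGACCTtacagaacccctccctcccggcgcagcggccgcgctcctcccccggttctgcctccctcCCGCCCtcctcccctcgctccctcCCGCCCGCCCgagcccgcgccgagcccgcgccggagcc
Capitals mark the GC boxes, read here from the other strand, and a nuclear receptor half-site, also read from the other strand. The last pair of GC boxes overlaps. GC content was 69.6%, with 23 CpG sites, where the median promoter has 6. Of all 32851 promoters, 32.7% hold a GC box and 14.0% the half-site, and these matches describe letters only. GC boxes were found in 4 of the 10 promoters of the set.

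Among the other Shisa genes, none of the measured relatives was called lower in old mice. Shisa5 and Shisa9 rose after dmPGE2 and Shisa5 and Shisa7 after vehicle. Shisa9, another AMPA receptor auxiliary subunit in brain, averaged 7.93 ± 3.17 CPM in old and 2.68 ± 0.776 CPM in young dmPGE2 libraries, a 3.02-fold rise (adjusted p = 0.0164). Shisa5, an endoplasmic reticulum protein, rose by 0.29 and 0.33 on the log2 scale after dmPGE2 and vehicle (adjusted p = 0.0235 and 0.0192). Uncalled were Shisa9 after vehicle, at 2.35-fold (adjusted p = 0.128), and Shisa7 after dmPGE2, at 3.38-fold (adjusted p = 0.0971). The lowest of the 4 measured relatives after dmPGE2 was also uncalled, with a fall of -2.71 on the log2 scale, so not all of them rose. The calls changed when single mice were left out: leaving out 1 mouse at a time, the list had 0 to 2 calls in each arm. The dmPGE2 call was lost without mouse 478, 480 or 484 for Shisa9 and without 477, 478, 479, 480 or 483 for Shisa5, and the vehicle call was lost without 484 for Shisa5 and without any 1 mouse other than 486 for Shisa7.

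Hnf4a encodes a nuclear receptor best known as a regulator of liver, gut and pancreas genes. After dmPGE2, Hnf4a had 5.09, 4.08, 3.86 and 8.54 CPM in old mice, against 43.3, 31.1, 16.2 and 30.5 CPM in young mice. After vehicle, Hnf4a had 8.33, 7.98, 4.46 and 0.0649 CPM in old mice, against 32.2, 30.3, 31.5 and 41.4 CPM in young mice. Old and young libraries did not overlap in either arm. The vehicle library of old mouse 486 held 1 count (95% Poisson interval 0.0253 to 5.57 counts) while its dmPGE2 library held 130 (109 to 154 counts), so the old vehicle mean rests on 3 of its 4 libraries. For Hnf4a, the log2 fold change was -2.43 ± 0.33 in dmPGE2 libraries and -2.87 ± 0.68 in vehicle libraries. Hnf4a averaged, on date 2, 26.5% of its young level in old mice after dmPGE2 and 6.21% after vehicle, and on date 1 12.3% after dmPGE2 and 26.1% after vehicle. Of 9 hepatocyte markers looked at beside it, 2 were measured, Apoa1 and Apoa2, and they summed to 4.71 to 6.43 CPM in old and 5.66 to 6.42 CPM in young dmPGE2 libraries, and to 3.89 to 7.79 CPM in old and 4.55 to 6.79 CPM in young vehicle libraries. The other 7, Alb and Ttr among them, were not analysed here. The counted exons of Hnf4a lie at chr2:163547188-163572907, plus strand. RefSeq gives it 2 promoters, and the downstream one (GRCm38.p6, chr2:163546905-163547154, plus strand) is shown because the counted exons begin just after it:
Hnf4a downstream promoter: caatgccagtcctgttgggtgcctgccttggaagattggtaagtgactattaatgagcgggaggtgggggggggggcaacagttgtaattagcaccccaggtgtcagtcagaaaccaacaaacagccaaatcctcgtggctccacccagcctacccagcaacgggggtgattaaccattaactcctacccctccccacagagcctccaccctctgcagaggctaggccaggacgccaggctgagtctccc
It held none of the 9 motifs, so it has no capitals. Its GC content was 57.6%.

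Of 25 other nuclear receptor genes measured, 5 were higher and 0 lower in old mice after dmPGE2, and 8 were higher and 0 lower after vehicle. Rarb, a retinoic acid receptor gene, rose 4.15-fold after dmPGE2 and 7.02-fold after vehicle (adjusted p = 0.00315 and 0.000106). Rarg, a second retinoic acid receptor gene, and Vdr, the vitamin D receptor gene, also rose in both arms, by 0.68 to 1.17 on the log2 scale. With 1 mouse left out at a time, 4 to 6 of the list were higher after dmPGE2 and 4 to 7 after vehicle, where the count fell to 4 without mouse 480 and to 5 without 478, 479, 483 or 486. The calls of Rarb, Rarg and Vdr were kept in all 8 of these fits in both arms.

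Rps4l is annotated as a transcribed processed pseudogene in GENCODE vM21, and resembles Rps4x, which encodes a protein of the small ribosomal subunit. After dmPGE2, Rps4l had 10.5, 6.0, 9.94 and 9.26 CPM in old mice, against 33.5, 27.9, 31.8 and 31.0 CPM in young mice. After vehicle, Rps4l had 9.92, 9.54, 9.30 and 8.64 CPM in old mice, against 34.0, 37.9, 29.8 and 34.0 CPM in young mice. It had the tightest vehicle values of the 10 genes in old mice, with an SD of 5.78% of the mean. For Rps4l, the log2 fold change, old over young, was -1.77 ± 0.19 in dmPGE2 libraries and -1.86 ± 0.14 in vehicle libraries. Rps4l averaged, on date 2, 30.6% of its young level in old mice after dmPGE2 and 28.1% after vehicle, and on date 1 26.8% after dmPGE2 and 27.1% after vehicle. It has a single exon, at chr6:148354656-148355596, plus strand. Its transcript aligned to that of Rps4x with 78.8% identical bases over 848 columns, and 90 bases from the shared ATG are shown with the differing bases in capitals, since reads could be shared only where the copies match:
Rps4l: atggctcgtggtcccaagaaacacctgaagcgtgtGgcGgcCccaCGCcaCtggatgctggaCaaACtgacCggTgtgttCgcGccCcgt
Rps4x: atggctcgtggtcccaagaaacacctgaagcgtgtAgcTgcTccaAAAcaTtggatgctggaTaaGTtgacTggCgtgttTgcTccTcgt
These stretches differ at 15 bases, and the longest identical run anywhere in the alignment was 38 bases. No 50-base word of Rps4l occurs in Rps4x, but 14.9% of its 50-base words occur in another pseudogene, Rps4l-ps, which was not analysed here, so the 2 cannot be told apart there. Rps4x, named after its values were seen, was not called in either arm. Of 32 measured genes of small ribosomal subunit proteins, 3 were higher and 0 lower after dmPGE2, and 0 were higher and 1 lower after vehicle, where Rps27l fell by 0.35 on the log2 scale (adjusted p = 0.016). These counts depend on single mice. After dmPGE2, 21 were higher without mouse 486, 7 without 483 and 0 without any 1 of the other 6 mice, and after vehicle 6 were lower without 477 and 0 without 478, 480, 484 or 485, where the Rps27l call was lost.

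Mmp2 encodes gelatinase A, a secreted enzyme that cleaves collagens and other matrix proteins. After dmPGE2, Mmp2 had 2.38, 3.54, 1.11 and 1.71 CPM in old mice, against 16.5, 17.2, 19.2 and 11.4 CPM in young mice. After vehicle, Mmp2 had 2.19, 3.40, 4.21 and 0.325 CPM in old mice, against 17.1, 17.1, 16.4 and 17.1 CPM in young mice. Young vehicle libraries lay within 1 CPM of each other, while the lowest old vehicle library, of mouse 486, had 5 counts. For Mmp2, the log2 fold change was -2.90 ± 0.31 in dmPGE2 libraries and -2.73 ± 0.50 in vehicle libraries. Without old mouse 485 the vehicle value was -3.38. Mmp2 averaged, on date 2, 9.20% of its young level in old mice after dmPGE2 and 13.5% after vehicle, and on date 1 17.6% after dmPGE2 and 16.3% after vehicle. Mmp2 lies at chr8:92827328-92853420, plus strand. Mmp2 is also made by marrow stroma: 11 of 15 stromal markers were measured, summing to 108 to 125 CPM in old and 85.4 to 111 CPM in young dmPGE2 libraries, and to 102 to 114 CPM in old and 70.4 to 127 CPM in young vehicle libraries. With both dates together, the old and young ranges of that sum overlapped in both arms. On date 2 after dmPGE2 they did not, with 119 to 125 CPM in old and 85.4 to 104 CPM in young libraries. The part of stroma in the Mmp2 values was not tested. Among metalloproteinases and their inhibitors, 2 of 14 measured relatives were higher and 1 lower after dmPGE2, and 2 of 15 were higher and 0 lower after vehicle. With 1 mouse left out at a time there were 1 to 3 calls after dmPGE2, with 1 without mouse 477, 480 or 485, and 2 in every vehicle fit. Mmp14, the membrane enzyme that activates the Mmp2 proenzyme, averaged 63.3 ± 13.4 CPM in old and 23.6 ± 2.36 CPM in young dmPGE2 libraries, and 66.2 ± 10.5 CPM in old and 21.4 ± 9.66 CPM in young vehicle libraries. Mmp14 rose 2.71-fold after dmPGE2 and 3.14-fold after vehicle (adjusted p = 0.000187 and 0.00387). Timp3, a matrix-bound inhibitor, rose 2.04-fold after dmPGE2 and 2.69-fold after vehicle (adjusted p = 0.0191 and 0.000628), and its dmPGE2 call was lost without mouse 477, 478, 479, 480 or 485.

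Synpo2 encodes synaptopodin 2, an actin-binding protein of muscle Z-discs. After dmPGE2, Synpo2 had 3.60, 1.38, 1.31 and 1.58 CPM in old mice, against 8.53, 10.8, 9.33 and 7.48 CPM in young mice. After vehicle, Synpo2 had 4.08, 1.34, 1.72 and 6.56 CPM in old mice, against 8.51, 6.73, 7.93 and 6.56 CPM in young mice. In the vehicle arm the library of old mouse 486 reached the level of the lowest young libraries, and in the dmPGE2 arm the groups did not overlap. For Synpo2, the log2 fold change was -2.20 ± 0.36 in dmPGE2 libraries and -1.16 ± 0.46 in vehicle libraries. Synpo2 averaged, on date 2, 17.1% of its young level in old mice after dmPGE2 and 57.1% after vehicle, and on date 1 25.7% after dmPGE2 and 35.5% after vehicle. Synpo2 lies at chr3:123076519-123236149, minus strand. Its relative Synpo, which encodes synaptopodin, averaged 9.17 ± 4.20 CPM in old and 0.717 ± 0.703 CPM in young dmPGE2 libraries, and 7.31 ± 1.81 CPM in old and 1.59 ± 1.68 CPM in young vehicle libraries. Synpo rose 13.6-fold after dmPGE2 and 5.17-fold after vehicle (adjusted p = 0.004 and 0.0205). Of the 14 measured relatives 2 were higher and 1 lower after dmPGE2, and of 13 after vehicle 3 were higher and 1 lower. With 1 mouse left out at a time, the list had 2 to 7 calls after dmPGE2, with 7 without mouse 486, and 0 to 4 after vehicle, with 0 without 480 and 1 without 478. The vehicle call of Synpo was lost without 478, 480, 483 or 484, with log2 fold changes of 2.04 to 3.27 over the 8 fits, and its dmPGE2 call was kept in all 8.

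Myh10 encodes the heavy chain of nonmuscle myosin IIB, a motor that pulls on actin. After dmPGE2, Myh10 had 5.37, 4.98, 7.65 and 2.82 CPM in old mice, against 18.4, 21.2, 18.3 and 35.2 CPM in young mice. After vehicle, Myh10 had 6.85, 9.15, 10.6 and 9.16 CPM in old mice, against 18.6, 14.4, 22.4 and 19.1 CPM in young mice. The groups did not overlap in either arm. In all 4 old mice and in 2 of 4 young mice the dmPGE2 library was the lower of the pair, a count that touches how the gene was chosen and from which nothing is read. For Myh10, the log2 fold change was -2.10 ± 0.32 in dmPGE2 libraries and -1.05 ± 0.19 in vehicle libraries. Myh10 averaged, on date 2, 19.6% of its young level in old mice after dmPGE2 and 47.7% after vehicle, and on date 1 26.1% after dmPGE2 and 48.5% after vehicle. Myh10 lies at chr11:68691915-68816624, plus strand, and 0.69% of its 50-base words also occur in Myh9. Of 13 genes of nonmuscle myosin II and its regulators, 2 were higher and 0 lower after dmPGE2, and 5 were higher and 1 lower after vehicle. With 1 mouse left out at a time there were 2 to 4 calls after dmPGE2, with 4 without mouse 486, and 3 to 6 after vehicle, with 3 without 478, 479, 480 or 485. Myh14, the heavy chain of nonmuscle myosin IIC, averaged 10.5 ± 3.19 CPM in old and 1.87 ± 0.900 CPM in young vehicle libraries, a 5.51-fold rise (adjusted p = 0.00252), and after dmPGE2 it was not called, at 2.19-fold (adjusted p = 0.303). Mylk, a kinase of the myosin light chain, rose 3.04-fold after dmPGE2 and by 1.32 on the log2 scale after vehicle (adjusted p = 0.000421 and 0.000607).

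Sec16b encodes a scaffold protein of the endoplasmic reticulum sites where COPII-coated vesicles form. After dmPGE2, Sec16b had 1.49, 2.94, 0.327 and 1.71 CPM in old mice, against 8.59, 4.94, 5.25 and 7.22 CPM in young mice. After vehicle, Sec16b had 2.95, 3.57, 3.82 and 2.47 CPM in old mice, against 6.23, 5.22, 4.10 and 3.63 CPM in young mice. The vehicle libraries of old and young mice overlapped, and the dmPGE2 libraries did not. For Sec16b, the log2 fold change was -2.05 ± 0.51 in dmPGE2 libraries and -0.55 ± 0.34 in vehicle libraries. Sec16b averaged, on date 2, 16.3% of its young level in old mice after dmPGE2 and 81.4% after vehicle, and on date 1 32.8% after dmPGE2 and 57.0% after vehicle. Sec16b lies at chr1:157506796-157568424, plus strand. Its dmPGE2 library was lower than the vehicle library in all 4 old mice, and higher in 3 of 4 young mice. These counts touch how the gene was chosen, and nothing is read from them. Of 16 measured COPII coat and exit site genes, 0 were higher and 1 lower in each arm. That gene was Sec24d, a cargo-binding coat subunit, which fell 1.59-fold after dmPGE2 and 1.36-fold after vehicle (adjusted p = 0.0129 and 0.0487). The vehicle call was kept only without mouse 484 or 486, and the dmPGE2 call was kept without any 1 mouse.

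**Figure D2:**
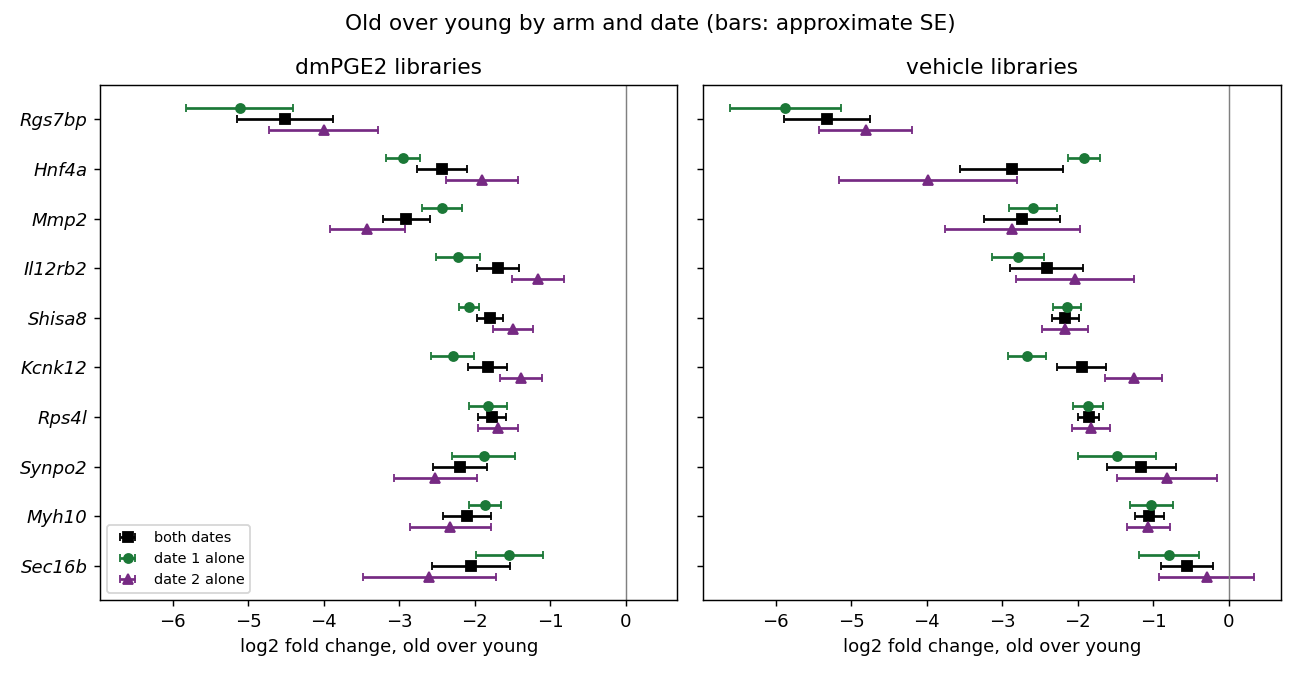
Log2 fold change, old over young (horizontal axes), of the 10 genes in dmPGE2 libraries and in vehicle libraries, for both dates together (squares), date 1 alone (circles) and date 2 alone (triangles), with bars for approximate SE. All points lie below 0 on both dates, and with both dates together those of Rps4l are at -1.77 after dmPGE2 and -1.86 after vehicle.

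Over the 10 lists together, 26 of 152 measured relatives were higher and 5 lower in old mice after dmPGE2, and 28 of 147 were higher and 7 lower after vehicle. Those are 17.1% and 3.29% after dmPGE2, and 19.0% and 4.76% after vehicle. Over all genes, 7.85% were higher and 6.41% lower after dmPGE2, and 8.47% higher and 8.86% lower after vehicle. The lists leave out the 10 genes, which were picked for falling, while the shares over all genes include them. The lists were also drawn up with earlier results of these data known. Nothing is read from the gap, here or for the single lists above. With 1 mouse left out at a time, 16 to 49 were higher and 2 to 7 lower after dmPGE2, the 49 without mouse 486, and 17 to 26 were higher and 2 to 12 lower after vehicle, the 12 without mouse 477. Of the R7 and RGS list around Rgs7bp, 3 of 16 were higher and 2 lower after dmPGE2, and 2 of 13 were higher and 3 lower after vehicle. With 1 mouse left out at a time this list had 2 to 4 calls after dmPGE2, with 2 without mouse 478, 479, 480, 484 or 485, and 3 to 6 after vehicle, with 3 without 480 or 485. Gnb5, the G protein subunit that R7 regulators bind, rose 1.52-fold after dmPGE2 and 1.47-fold after vehicle (adjusted p = 0.0423 and 0.0162), but its dmPGE2 call was lost whichever mouse was left out and its vehicle call without 480 or 485. Rgs12, a regulator of another subfamily, fell 1.51-fold after dmPGE2 and 1.44-fold after vehicle (adjusted p = 0.00934 and 0.00589). Rgs18 rose 1.43-fold after dmPGE2 and 1.24-fold after vehicle (adjusted p = 0.000484 and 0.00404). The calls of Rgs12 and Rgs18 were kept whichever mouse was left out. So was that of Rgs2, which fell 1.32-fold after vehicle (adjusted p = 0.00448) and was not called after dmPGE2. Rgs19 was called lower in both arms, and each call was lost in 6 of 8 fits. Gnai3 was called higher after dmPGE2, a call lost in 7 of 8 fits.

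**Figure D3:**
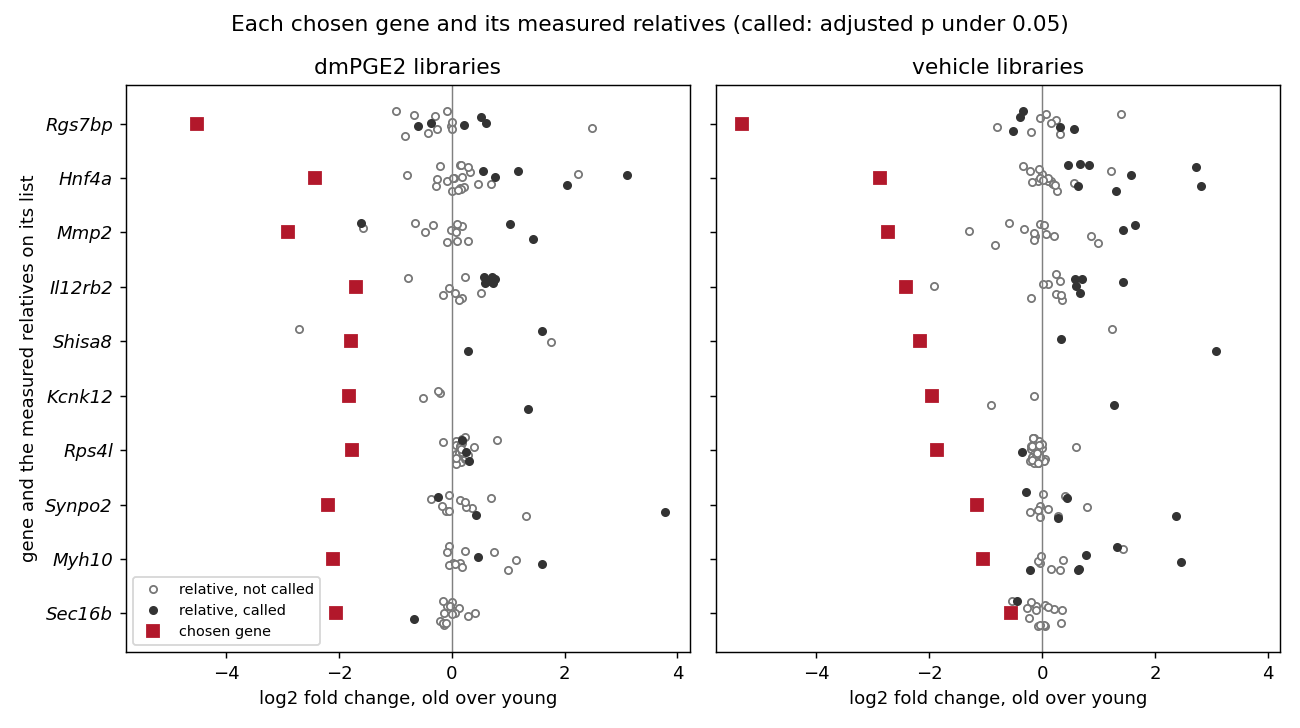
Log2 fold change, old over young (horizontal axes), of each of the 10 genes (red squares) and of all measured relatives on its list (circles, filled where the adjusted p was under 0.05, spread vertically for legibility), in dmPGE2 and vehicle libraries. Filled circles to the right of 0 number 26 after dmPGE2 and 28 after vehicle, and those to the left 5 and 7.

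Per kilobase of exon (RPKM), Shisa8 and Rps4l were the most abundant of the 10 genes and Synpo2 and Sec16b the least in young vehicle libraries. Mean levels in that group ran from 36.1 ± 6.70 RPKM for Shisa8, 36.1 ± 3.49 for Rps4l and 16.3 ± 1.22 for Kcnk12 through 7.76 ± 1.16 for Hnf4a, 6.24 ± 1.37 for Il12rb2 and 5.57 ± 0.120 for Mmp2 to 2.39 ± 0.425 for Myh10, 2.14 ± 0.436 for Rgs7bp, 1.05 ± 0.133 for Synpo2 and 1.03 ± 0.251 for Sec16b (SD, n = 4). Shisa8 and Rps4l overlapped, as did Hnf4a with Il12rb2, Il12rb2 with Mmp2, Myh10 with Rgs7bp, and Synpo2 with Sec16b. In old vehicle libraries Rps4l (9.94 ± 0.574 RPKM) and Shisa8 (8.07 ± 2.29 RPKM) were still at the top, and Rgs7bp, at 0.0524 ± 0.0398 RPKM, was at the bottom and below all libraries of the gene above it.

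For these 10 genes, the 2 libraries of a mouse lay further apart in the old mice of date 2 than in the other mice. Between the 2 libraries of a mouse, the level of a gene differed by a median of 1.45-fold in old mice and 1.21-fold in young mice, over 39 and 40 pairs of gene and mouse. A gap of over 2-fold was seen in 8 pairs of old mice and in 0 pairs of young mice, where the widest was 1.99-fold. All 8 were in mice 485 and 486 of date 2, with a median of 1.81-fold over 20 pairs in old mice and 1.20-fold over 20 in young mice of that date. On date 1 the median was 1.21-fold in old mice, with 1.98-fold as the widest of 19 pairs, and 1.22-fold in young mice. The widest in old mice was Hnf4a in mouse 486, at 132-fold, followed by Sec16b at 11.7-fold. Counts were lower in old libraries, so counting error was larger there, and its part in these gaps was not tested. The pairs are the chosen genes in 4 mice of each age and are not replicates. The genes were picked on these same old and young values, and the share of such gaps over all genes was not computed. Nothing is read from the gaps about old mice in general.

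**Figure D4:**
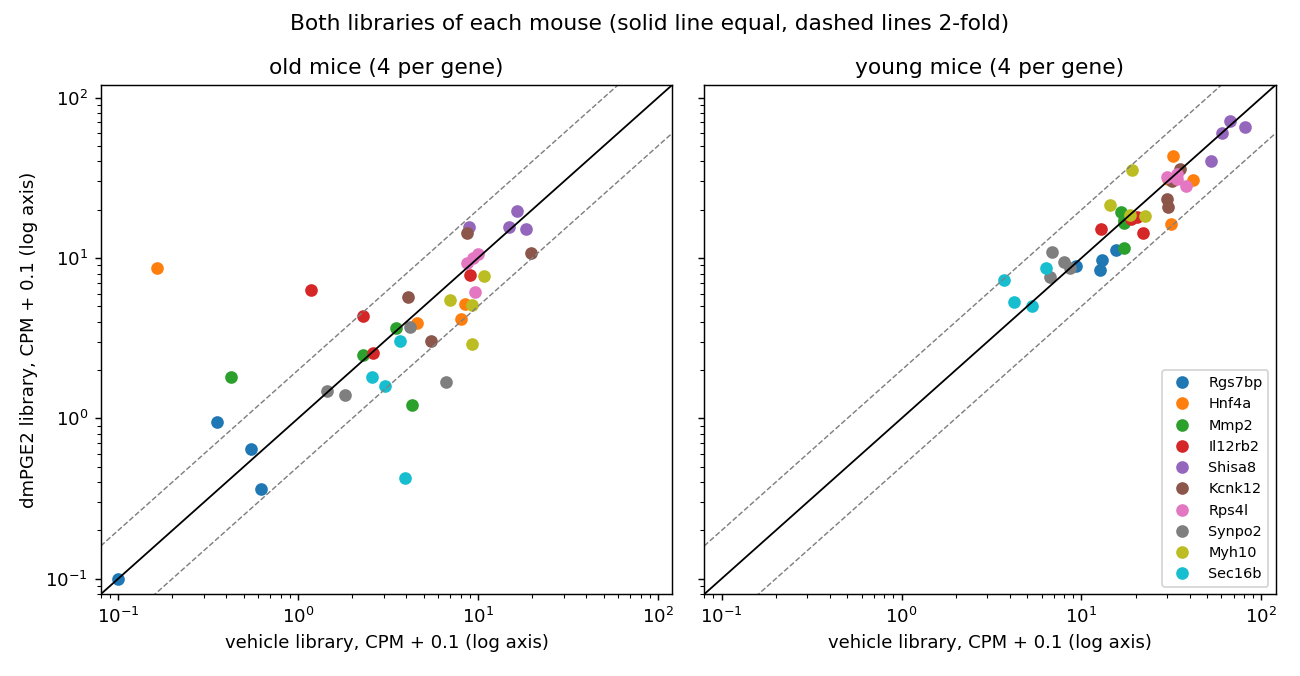
Level of each gene in the dmPGE2 library (vertical axis) against the vehicle library (horizontal axis) of the same mouse, both as CPM + 0.1 on log axes, for 4 old and 4 young mice, with colours for genes, a solid line for equal levels and dashed lines for 2-fold. Points of young mice stay within the dashed lines, as do those of old mice 479 and 480, and the 8 points outside belong to old mice 485 and 486.

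Across all 16 libraries the 45 pairs of genes had a median Pearson r of 0.76 on log2 CPM, and 45 of 45 were positive. Those libraries share the age gap that chose the genes. Within the 8 old libraries the median r was -0.06 and within the 8 young libraries it was 0.04, with values from -0.81 to 0.80 and from -0.79 to 0.69. These are descriptions over libraries that share mice, dates and depth. The genes outside the set most like each one over 16 libraries, with r given as a description, were Umps (0.949) and Cd34 (0.939) for Rgs7bp, Tubb5 (0.955) and Acot7 (0.937) for Il12rb2, and Cdk1 (0.959) and Racgap1 (0.958) for Kcnk12. For Shisa8 they were Phgdh (0.974) and Ssrp1 (0.973), for Hnf4a Unc119b (0.920) and Plxna2 (0.905), and for Rps4l Cdca7 (0.959) and Suv39h1 (0.954). For Mmp2 they were Cux1 (0.971) and Nov (0.900), for Synpo2 Chaf1a (0.912) and Adcy3 (0.905), for Myh10 Cdc6 (0.909) and Cenpo (0.904), and for Sec16b Exoc3 (0.930) and Spsb4 (0.922).

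Whether dmPGE2 changed the genes was tested over all 8 mice, with each mouse as its own control, and this contrast did not choose them. None of the 10 was called, where 0.61% of all 13942 genes were called by edgeR's quasi-likelihood test, and none had an unadjusted p under 0.05. DESeq2 and limma-voom also called 0 of the 10. The log2 fold change, dmPGE2 over vehicle, ran from -0.33 ± 0.33 for Sec16b to 0.32 ± 0.25 for Il12rb2, and 6 of the 10 values were below 0. The tightest estimates were 0.07 ± 0.11 for Shisa8 and -0.07 ± 0.12 for Rps4l, and the loosest was 0.04 ± 0.55 for Hnf4a. The response on date 2 minus that on date 1, a contrast added after the data were seen, was called for 0 of 10 genes, where 1.08% of all genes were called.

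Split by age, which touches how the genes were chosen and so is given without a test, dmPGE2 over vehicle was -0.77 ± 0.26 in old and 0.31 ± 0.24 in young mice for Myh10 on the log2 scale. For Sec16b it was -1.11 ± 0.49 in old and 0.45 ± 0.45 in young mice, and for Synpo2 -0.59 ± 0.37 and 0.30 ± 0.34. In the rankings made here, these 3 genes stood near the top only after dmPGE2. Il12rb2 had the opposite signs, at 0.78 ± 0.37 in old and -0.14 ± 0.33 in young mice. Over all 13942 genes, edgeR called 0 for a difference in dmPGE2 response between old and young mice, with 955 at an unadjusted p under 0.05, while DESeq2 called 17 and limma-voom 0.

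The dates gave a second comparison that did not choose the genes. After dmPGE2, 1 of 10 genes was called for date 2 against date 1, beside 11.7% of all genes, and after vehicle 0 of 10, beside 11.0%, so the count is near the background. The gene was Kcnk12, at 1.04 ± 0.25 on the log2 scale (adjusted p = 0.0249), with a vehicle value of 0.88 ± 0.32 (adjusted p = 0.108). In dmPGE2 libraries its level was 14.2 and 10.6 CPM on date 2 and 5.59 and 2.94 CPM on date 1 in old mice, and 35.6 and 29.9 CPM on date 2 and 23.4 and 20.7 CPM on date 1 in young mice. Both ages had their date 2 libraries above their date 1 libraries. With a date term for each age, the dmPGE2 value was 1.53 ± 0.32 in old mice (adjusted p = 0.0335) and 0.61 ± 0.30 in young mice (adjusted p = 0.259), and the difference between ages was not tested. The call was lost without young mouse 478 (adjusted p = 0.0663), old mouse 479 (0.0547) or young mouse 483 (0.0556), with values of 1.08, 1.08 and 1.09. After vehicle no gene was called by edgeR with 1 date term for both ages, and 1 had an unadjusted p under 0.05, again Kcnk12, which DESeq2 called (adjusted p = 0.0314) and limma-voom did not (0.216). With a date term for each age, edgeR's vehicle value for Kcnk12 was 1.62 ± 0.36 in old mice (adjusted p = 0.0367) and 0.23 ± 0.33 in young mice (adjusted p = 0.743). In dmPGE2 libraries the 11 neutrophil markers summed to 976 to 1037 CPM in old and 1123 to 1441 CPM in young mice on date 2, against 243 to 270 CPM in old and 203 to 226 CPM in young mice on date 1. The 8 monocyte markers summed to 261 to 339 CPM in old and 494 to 580 CPM in young mice on date 2, against 31.7 to 65.7 CPM in old and 62.1 to 72.5 CPM in young mice on date 1. The part of these cells in the Kcnk12 values was not tested.

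**Figure D5:**
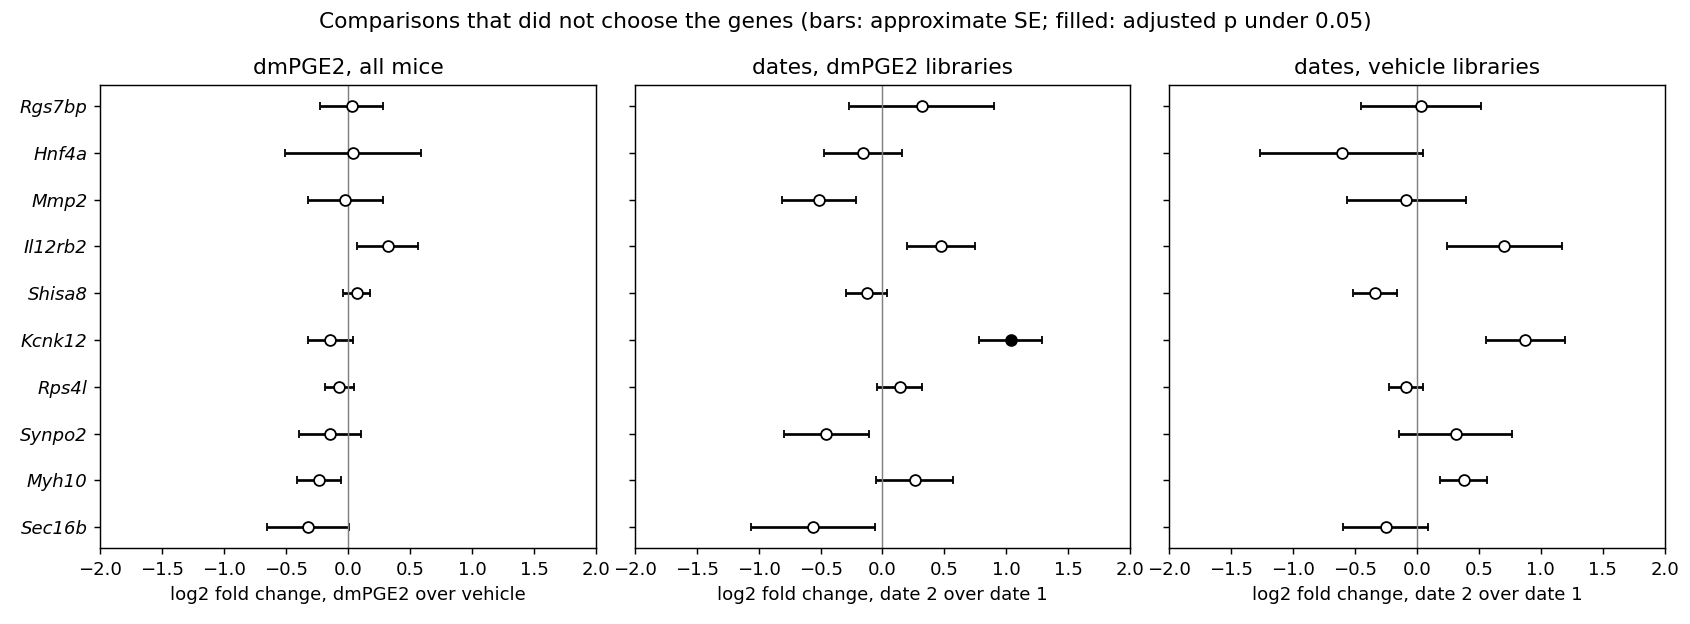
Log2 fold change (horizontal axes) of the 10 genes for dmPGE2 over vehicle in all mice, and for date 2 over date 1 in dmPGE2 and in vehicle libraries, with bars for approximate SE and filled circles where the adjusted p was under 0.05. The single filled circle is Kcnk12, at 1.04 for dates in dmPGE2 libraries.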

How the data were processed

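The authors deposited raw read counts per gene for 16 libraries, without normalization, and these counts were the starting point. STAR 2.5.2b, Subread 1.5.1 and featureCounts, with build mm10, are listed per the submitters' processing notes, without their roles. Strand setting and annotation of the counting step: not given in the sources used here. The table held 14829 genes and 2504 empty lines, and every gene passed 0.5 CPM in 2 or more libraries, which leaves out low genes. CPM and RPKM were computed here from library totals and the table's exon lengths.

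Genes were tested with edgeR 4.0.16 in R 4.3.3 (quasi-likelihood, robust, TMM, filterByExpr) over all genes, with Benjamini-Hochberg adjustment and calls at an adjusted p under 0.05. DESeq2 1.42.0 and limma 3.58.1 (voom) were alternatives. For dmPGE2, 16 libraries entered 1 fit with mouse as block and dmPGE2 terms for old and young. Pairing comes from the labels, and the libraries of a mouse correlated at 0.375 to 0.626 after group means were removed. For age and for date, the 8 libraries of an arm were fitted with age and date. The approximate SE divides the size of the log2 fold change by the root of F. All 10 genes passed the filter in every fit, Rgs7bp through its young libraries.

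The 10 genes, the lists of relatives and markers, and the tests were chosen with earlier results of these data known. Named relatives were up to 4 called genes per list and comparison by smallest p, of which 1 is not reported here, and like genes the 2 with the highest r over 16 libraries. The 3 other genes with the largest called falls in each arm were also named. Promoters are RefSeq's (GRCm38.p6), and overlaps and shared 50-base words were taken from GENCODE vM21.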

Additional observations from a re-analysis of the deposited data

Results flagged for a closer look

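Of 40 groups of 4 libraries (10 genes in 4 groups), 4 had a single library set apart from the other 3 by a gap above Dixon's critical share of the group's range, and chance alone flags about 1 group in 20. Shisa8 in old dmPGE2 libraries had 19.6 CPM in mouse 486, where the others had 15.2 to 15.6 CPM. Synpo2 in old dmPGE2 libraries had 3.60 CPM in mouse 479, against 1.31 to 1.58 CPM in the others. Hnf4a in young vehicle libraries had 41.4 CPM in mouse 484, against 30.3 to 32.2 CPM. Mmp2 in young vehicle libraries had 16.4 CPM in mouse 483, against 17.1 CPM in each of the other 3, a gap that is small in size.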

How the results depend on the processing

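No old over young value of the 10 genes changed sign under any alternative tried. With other settings, counts over all genes moved more than 1.5-fold as follows. For dmPGE2 against vehicle in all mice, 85 became 443 with DESeq2, 225 with limma-voom, 39 with no replicate block, 347 with dmPGE2 terms for each age and date, 725 on date 1 alone and 51 on date 2 alone. For the difference in dmPGE2 response between old and young, 0 became 17 with DESeq2, 1 with terms for each age and date and 24 on date 1 alone. For date 2 against date 1, 1556 became 435 in old and 986 in young dmPGE2 libraries, and 1472 became 468 in old vehicle libraries. For old against young, 1894 after dmPGE2 became 804 with no date term and 264 on date 2 alone, and 2318 after vehicle became 971 with no date term, 1092 on date 1 alone and 483 on date 2 alone. Leaving out 1 mouse at a time gave 0 to 166 for dmPGE2, 0 to 2 for the difference in response, 694 to 1864 and 902 to 1346 for dates after dmPGE2 and vehicle, and 1104 to 2167 and 1448 to 2129 for age.

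Of the 10 genes, uncalled values for dmPGE2 changed sign as follows. Hnf4a was -0.16 with limma-voom, -0.022 with no replicate block and -0.24 on date 1 alone. Mmp2 was 0.0038 with DESeq2 and 0.087 on date 1 alone, where Rgs7bp was -0.076, Shisa8 -0.048 and Synpo2 0.19, and Rps4l was 0.059 on date 2 alone. For dates, Rgs7bp was -0.23 with limma-voom in vehicle libraries and -0.27 in young vehicle and -0.049 in young dmPGE2 libraries. In young libraries alone, Hnf4a was 0.30 and Mmp2 0.043 after vehicle and Il12rb2 was -0.030 after dmPGE2. In old dmPGE2 libraries alone, Hnf4a was 0.42 and Shisa8 0.19. Leaving out 1 mouse at a time, dmPGE2 values ran from -0.29 to 0.31 for Rgs7bp, -0.39 to 0.28 for Hnf4a, -0.26 to 0.28 for Mmp2, -0.026 to 0.15 for Shisa8, -0.30 to 0.0080 for Kcnk12, -0.11 to 0.017 for Rps4l and -0.26 to 0.096 for Synpo2. Date values in vehicle libraries ran from -0.25 to 0.26 for Rgs7bp, -0.67 to 0.26 for Mmp2, -0.042 to 0.98 for Il12rb2 and -0.21 to 0.57 for Synpo2. In dmPGE2 libraries they ran from -0.026 to 0.57 for Rgs7bp, -0.48 to 0.12 for Hnf4a, -0.22 to 0.040 for Shisa8 and -0.022 to 0.53 for Myh10. The cause was not tested. The replicate block changed no call of the 10 genes. Of the 10 genes, Rgs7bp had the fewest counts in old mice, 26 over 4 dmPGE2 and 20 over 4 vehicle libraries, which limits its values there. Of 57 old against young calls among the relatives taken by the naming rule and Serbp1, 34 were kept whichever mouse was left out.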

Other observations

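Outside the 10 genes, with a lower floor on level (a mean of at least 0 on the log2 CPM scale), the largest called falls without overlap were in Nov, Kbtbd12 and Ptprm after dmPGE2 and in Nov, Flrt3 and 6030498E09Rik after vehicle. Nov, which encodes the matricellular protein CCN3, had 0 counts in all 4 old dmPGE2 libraries, against 1.51 to 3.01 CPM in young ones, and 0 to 0.574 CPM in old against 0.992 to 5.09 CPM in young vehicle libraries. Flrt3, a gene of a cell adhesion protein with leucine-rich repeats, had 0.112 to 0.844 CPM in old and 2.78 to 5.89 CPM in young vehicle libraries. Ptprm, which encodes a receptor tyrosine phosphatase, had 0 to 0.609 CPM in old and 2.18 to 5.38 CPM in young dmPGE2 libraries. Kbtbd12 had 0 to 1.20 CPM in old and 3.07 to 4.77 CPM in young dmPGE2 libraries. 6030498E09Rik had 0.0637 to 0.279 CPM in old and 0.772 to 2.36 CPM in young vehicle libraries.

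The 10 markers known to be high in aged stem cells, Selp, Vwf and Clu among them, summed to 2909 to 4348 CPM in old and 1041 to 1396 CPM in young dmPGE2 libraries, and to 2869 to 4344 CPM in old and 831 to 1367 CPM in young vehicle libraries.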
